A study of Mus musculus with 22 samples.

Results

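Genes of blood coagulation and complement were followed through the liver of newborn mice given AAV9 vectors. A list of 39 genes was set by name, 21 of clotting and fibrinolysis and 18 of complement, and all 39 were found among the 55291 genes of the expected-count table. The names were chosen with earlier results of these data known. The liver makes most of the plasma proteins that these genes encode, and their mRNA levels in the organ were the readout. RNA came from 22 livers of male WT C57BL/6 pups that received an i.v. injection on postnatal day 1, with the livers taken 36 hours later. There were 4 pups with PBS, 4 with AAV9 capsids that lack a genome (AAV9.empty), 4 with AAV9.EGFP, an EGFP vector behind the CB promoter, which is active in most tissues, and 3 with rAAV9-ST3GAL5.v1. That vector uses the CB promoter for human ST3GAL5, the GM3 synthase. Another 3 received the same cassette with E332K in its label (the E332K vector) and 4 received rAAV9-ST3GAL5.v2. The last vector expresses ST3GAL5 from Syn1, a promoter of neurons, and adds sites for miR-122, an abundant microRNA of hepatocytes. Litter, batch and day of collection are not given in the sources used here. What the p-values weigh is thus the scatter among these livers, which may be partly technical. The whole liver was sequenced, and for every gene fewer cells of a type and less RNA per cell cannot be told apart.

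Clotting starts when tissue factor (F3) on cells outside the vessel meets factor VII, or when the contact factors XII, XI, and prekallikrein are activated on a surface. Both routes lead through factor X and its cofactor, factor V, to thrombin, which cuts fibrinogen into fibrin. Antithrombin, heparin cofactor II, and proteins C and S hold thrombin in check, and plasmin dissolves the clot. Complement starts with antibody (C1), with sugars bound by mannose-binding lectins (Mbl1 and Mbl2 with the Masp proteases), or spontaneously on C3 with factor B. All routes meet at C3 and end in the membrane attack complex of C5 to C9. The fragment C5a recruits leukocytes through its receptor, C5ar1. Fibrinogen, C3, and factor B are classical acute-phase products of hepatocytes.

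The libraries held 17164502 to 24305788 expected counts, and the members together took 3.43% to 5.48% of them. The highest share belonged to rAAV9-ST3GAL5.v1 replicate 2, which stood above its 2 group mates in the fibrinogen genes and C3. Fold changes of these genes are given with and without it. For some comparisons the lowest value with any 1 library left out is given instead. A predicted gene, Gm47283, was at 0 counts in 9 libraries, in all 3 with rAAV9-ST3GAL5.v1, in 3 of 4 with AAV9.EGFP, in 2 of 4 with rAAV9-ST3GAL5.v2, and in 1 of 4 with AAV9.empty (replicate 4), whereas the PBS and E332K groups all expressed it. What separates these libraries is not given in the labels. With rAAV9-ST3GAL5.v1 and the E332K vector it cannot be told apart from the treatment, and for the other comparisons values among libraries alike in Gm47283 are given where they change a call. Levels below are in CPM, the TMM-scaled counts in proportion to each library's total, unless TPM, which correct for transcript length, are named. The words higher, lower, rose, and fell are kept for an adjusted p (edgeR, over all genes tested) of 0.05 or less.

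In the 4 PBS livers, the order of the members by TPM, the unit that allows genes to be compared, spanned more than 3 orders of magnitude. Kininogen 1 (Kng1) led with 3244 ± 195 TPM (SD, n = 4), followed by antithrombin (Serpinc1) with 3060.3 ± 211 TPM. These means lay within about 1 SD of each other. Fgg (2048 ± 129.8 TPM), C3 (2023 ± 105 TPM), and Fga (1999 ± 127 TPM) came next and did not differ beyond their spread. Fgb was listed at 939 ± 108 TPM. In all, 8 members exceeded 1000 TPM and 20 exceeded 100 TPM. At the lower end stood Pros1 (9.68 ± 1.88 TPM), C6 (5.52 ± 0.331 TPM), C5ar1 (4.03 ± 0.96 TPM), C9 (1.55 ± 0.514 TPM), and F3 (0.955 ± 0.241 TPM), the last 2 from few counts per PBS library (31 to 65 for C9 and 20 to 27 for F3).

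Against AAV9.empty, rAAV9-ST3GAL5.v1 moved the members in both directions. Of 39 members, all tested, 7 were higher and 17 lower, whereas among all 14876 genes tested 13.8% were higher and 14.3% lower. The median log2 fold change was -0.26 over the members and 0.025 over all genes. Most changes were moderate. With a fold change of at least 2 in addition, 2 members were higher (C5ar1 and F3) and 2 lower (Klkb1 and C6), against 4.21% and 3.78% of all genes. The clotting members split into 5 higher and 11 lower of 21, and the complement members into 2 higher and 6 lower of 18. Among libraries alike in Gm47283, only AAV9.empty replicate 4 was left to set against the 3 rAAV9-ST3GAL5.v1 livers, so that fit can give direction only. There the 6 members per direction with the largest changes kept their direction (C5ar1, F3, the 3 fibrinogen genes, and Pros1, and Klkb1, C6, C8g, C8b, Masp1, and Serpind1).

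**Figure D1:**
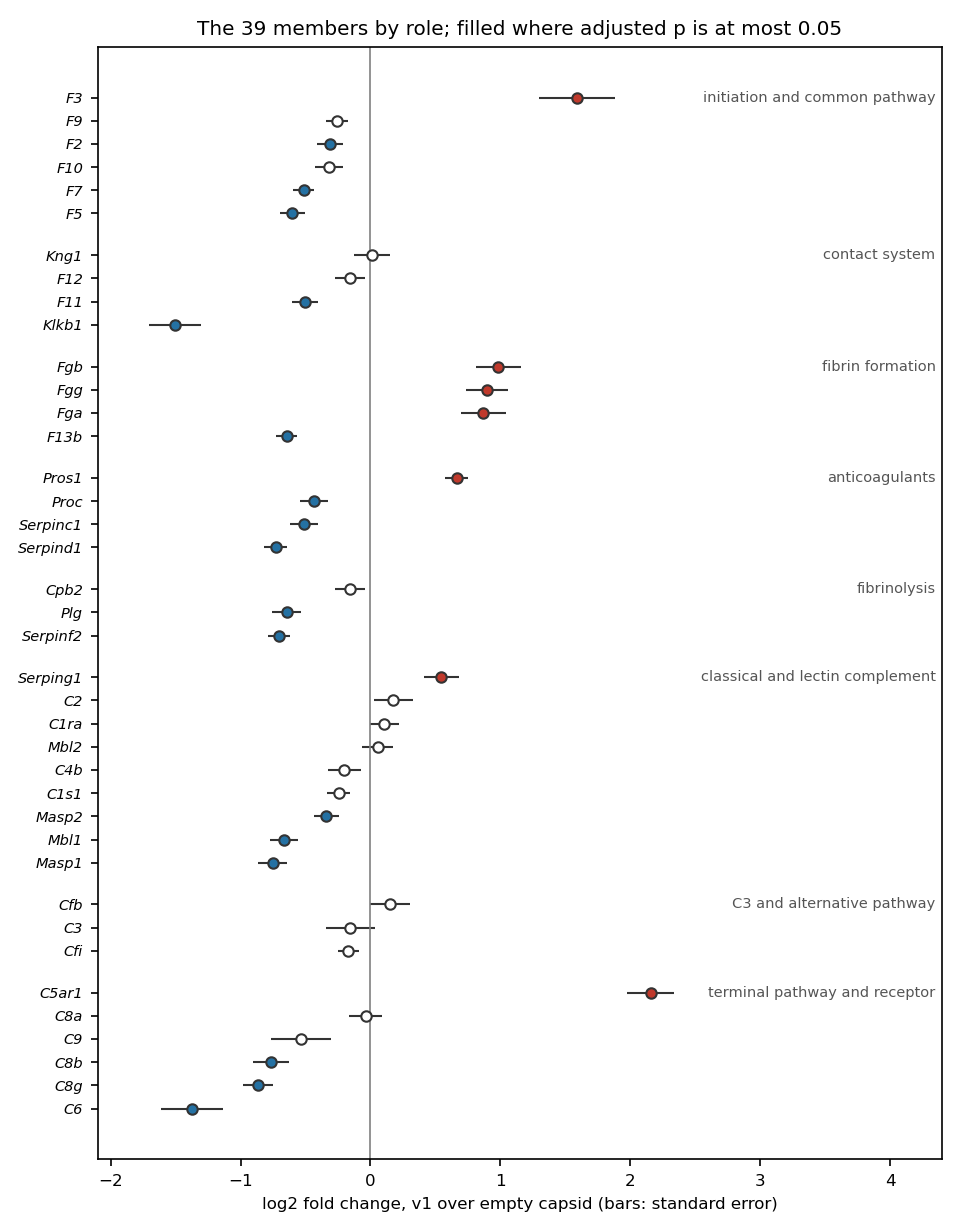
Log2 fold change of each of the 39 members in rAAV9-ST3GAL5.v1 livers (n = 3) over AAV9.empty livers (n = 4), sorted within 8 roles, with bars for the standard error of the edgeR fit; red points are higher, blue points lower, and open points did not pass an adjusted p of 0.05. The 3 fibrinogen genes lie between 0.87 and 0.99, while the remaining called clotting factors other than F3 and Pros1 lie to the left of 0.

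Hepatocyte markers moved with the members that fell. All 10 hepatocyte markers, albumin (Alb) and transthyretin (Ttr) among them, were lower in rAAV9-ST3GAL5.v1 livers, with a median log2 fold change of -0.65. Their summed level was 88533 to 103934 CPM in rAAV9-ST3GAL5.v1 livers, 129926 to 154348 CPM in AAV9.empty livers, and 141172 to 176787 CPM in PBS livers. None of the 10 was at 0 in a rAAV9-ST3GAL5.v1 or AAV9.empty liver. The part of this shift in the lower members was not tested.

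The 3 fibrinogen genes rose together. They sit side by side on chromosome 3 (GRCm38, GENCODE vM21), Fgg at chr3:83007724-83015049, Fga at chr3:83026076-83033627, and Fgb, on the opposite strand, at chr3:83040141-83049863, and encode the gamma, alpha, and beta chains of a protein that is assembled in equal parts. Fga measured 4893, 8411, and 5329.8 CPM in the 3 rAAV9-ST3GAL5.v1 livers and 3386, 3566, 3645, and 3125 CPM with AAV9.empty. The corresponding values for Fgb were 4597, 7487, and 4595 CPM against 2672, 2941, 3147, and 2579 CPM. Fgg measured 3899, 6089, and 3812 CPM against 2433, 2616, 2682, and 2241 CPM. In each gene the second rAAV9-ST3GAL5.v1 liver was far above the other 2, and the groups did not overlap. Fgb was 1.98-fold higher (log2 fold change 0.99 ± 0.17 (SE), adjusted p = 0.00316), Fgg 1.86-fold (log2 fold change 0.90 ± 0.16 (SE), adjusted p = 0.0037), and Fga 1.83-fold (log2 fold change 0.87 ± 0.17 (SE), adjusted p = 0.00566). With rAAV9-ST3GAL5.v1 replicate 2 left out, the log2 fold changes were 0.71, 0.64, and 0.58, and all 3 remained higher at an adjusted p of at most 0.0222 when any 1 of the 7 libraries was left out. Across the PBS, AAV9.empty, AAV9.EGFP, E332K, and rAAV9-ST3GAL5.v2 livers, Fga ranged from 2787 to 4143 CPM, Fgb from 2434 to 3696 CPM, and Fgg from 2241 to 3089.9 CPM, below every rAAV9-ST3GAL5.v1 liver. The fourth gene of fibrin formation moved the other way. F13b, the carrier subunit of the fibrin-crosslinking factor XIII, fell (log2 fold change -0.64 ± 0.082 (SE), adjusted p = 0.00075) from 163 to 184 CPM to 104 to 121 CPM.

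Because these genes moved together, the 300 bases around their RefSeq start sites were examined, from 250 bases before the start to 50 bases after it. In the sequences below, capitals mark matches on either strand to any of the motifs searched.
Fga promoter, GRCm38.p6 chr3:83025903-83026202, plus strand: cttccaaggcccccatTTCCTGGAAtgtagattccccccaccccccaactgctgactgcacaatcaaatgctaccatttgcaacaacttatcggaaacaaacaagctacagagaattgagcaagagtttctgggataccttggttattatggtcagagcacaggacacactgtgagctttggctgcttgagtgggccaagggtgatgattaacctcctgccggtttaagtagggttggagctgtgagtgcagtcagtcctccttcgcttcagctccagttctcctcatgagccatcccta
Fgb promoter, GRCm38.p6 chr3:83049814-83050113, minus strand: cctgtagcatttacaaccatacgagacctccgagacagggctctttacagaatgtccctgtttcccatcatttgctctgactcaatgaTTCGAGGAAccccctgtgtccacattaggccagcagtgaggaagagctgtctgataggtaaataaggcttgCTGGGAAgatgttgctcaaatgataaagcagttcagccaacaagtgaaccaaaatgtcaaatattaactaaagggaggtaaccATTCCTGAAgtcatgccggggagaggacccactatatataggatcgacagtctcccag
Fgg promoter, GRCm38.p6 chr3:83007474-83007773, plus strand: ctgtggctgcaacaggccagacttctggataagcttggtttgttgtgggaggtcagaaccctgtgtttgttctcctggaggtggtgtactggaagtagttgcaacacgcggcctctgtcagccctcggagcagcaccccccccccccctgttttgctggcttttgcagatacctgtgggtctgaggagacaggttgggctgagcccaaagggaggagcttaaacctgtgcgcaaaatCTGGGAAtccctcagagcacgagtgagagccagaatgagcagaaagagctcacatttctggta
The motifs were the type II IL-6 response element CTGGGAA, the STAT motif TTCNNNGAA, the C/EBP motif TTNNGNAAT, an HNF1 palindrome, and an NF-kB motif. Fgb held a STAT match 162 bases and an IL-6 element 91 bases before the start, with a C/EBP match that ended on the start base itself. Fgg held an IL-6 element 13 bases before the start and Fga a STAT match 234 bases before it. Promoters of 30 members were found in the RefSeq set. The IL-6 element was present in 2 of 6 members that were higher with rAAV9-ST3GAL5.v1 (Fgb and Fgg), in 2 of 14 that were lower (C6 and Masp2), and in 2 of 10 that were neither (C1ra and F9), against 11.1% of all 32851 promoters. The STAT motif was present in 3 of 6 (Fga, Fgb, and Pros1), 1 of 14 (Masp2), and 3 of 10 (C1ra, C8a, and F9), against 8.30% of all promoters. In Masp2 and F9 a match to the one overlaps a match to the other. The C/EBP motif was present in 1 of 6, 4 of 14, and 5 of 10, against 11.5%. No member matched the HNF1 palindrome or the NF-kB motif, which 0.00913% and 1.63% of all promoters held. A match describes letters, not a bound factor, and an unmatched window says only that these letters are not in it.

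Of the factors that start and carry out clotting, the initiator rose, and the others fell or were not called. Tissue factor, F3, measured 6.81, 5.11, and 5.20 CPM in rAAV9-ST3GAL5.v1 livers and 1.45, 1.26, 1.89, and 3.01 CPM with AAV9.empty, where replicate 4, the one without Gm47283, was highest. The groups did not overlap and F3 was 3.01-fold higher (log2 fold change 1.59 ± 0.29 (SE), adjusted p = 0.00409). F3 was a scarce transcript, with 104 to 142 counts per rAAV9-ST3GAL5.v1 library and 24 to 62 per AAV9.empty library. Against AAV9.empty replicate 4 alone its log2 fold change was 0.94 (adjusted p = 0.28). Factor VII (F7, -0.51), the cofactor factor V (F5, -0.60), and prothrombin (F2, -0.31) had lower levels on the log2 scale, with adjusted p-values of 0.002, 0.00198, and 0.0438. Factor IX (F9) and factor X (F10), the protease of the tenase complex and its substrate, had log2 fold changes of -0.26 and -0.32 and narrowly missed the threshold (adjusted p = 0.0537 and 0.0541). F2, F7, F9, F10, Proc, and Pros1 encode proteins that need vitamin K for activity. Of these 6, put together after their values had been seen, 3 were lower and 1, Pros1, was higher.

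In the contact system, plasma prekallikrein showed the deepest fall of all members. Klkb1 measured 55.8, 37.4, and 74.03 CPM in rAAV9-ST3GAL5.v1 livers against 173, 147, 173, and 145 CPM with AAV9.empty, without overlap. It was 2.84-fold lower (log2 fold change -1.50 ± 0.20 (SE), adjusted p = 0.00086), and 2.82-fold lower than with AAV9.EGFP (log2 fold change -1.50 ± 0.20 (SE), adjusted p = 0.00107). As a measure of reads that 2 genes could both claim, every stretch of 31 bases in a member's exons was looked for in other genes. The predicted gene Gm45753 shares 43.02% of the 31-base stretches of Klkb1, and drew at most 0.959 CPM in any library. F11, the zymogen of factor XI, also fell (log2 fold change -0.51 ± 0.098 (SE), adjusted p = 0.00525). F12 (-0.16) and Kng1 (0.013), the cofactor of the contact phase, were not called (adjusted p = 0.34 and 0.96). Kng1 shares 26.5% of its 31-base stretches with Kng2, which was higher (0.46, adjusted p = 0.00761).

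Among the anticoagulants, protein S parted from the other 3. Pros1 measured 50.8, 55.6, and 46.2 CPM with rAAV9-ST3GAL5.v1 and 33.5, 29.7, 33.2, and 33.3 CPM with AAV9.empty and was 1.58-fold higher (log2 fold change 0.66 ± 0.088 (SE), adjusted p = 0.00091). Unlike most members, protein S is also made outside hepatocytes, by endothelial cells and megakaryocytes among others. Of 10 sinusoidal endothelial markers, 2 were higher and 5 lower in rAAV9-ST3GAL5.v1 livers (summed 407 to 491 CPM against 496 to 593 CPM), and of 9 megakaryocyte and platelet markers none was called by edgeR (258 to 307 CPM against 251 to 280.2 CPM). Their part in the level of Pros1 was not tested. Heparin cofactor II (Serpind1) measured 327, 349, and 411 CPM against 626, 618, 609, and 571 CPM and was 1.66-fold lower (log2 fold change -0.73 ± 0.090 (SE), adjusted p = 0.00067). Antithrombin (Serpinc1) fell from 1641 to 2028 CPM to 1119 to 1438 CPM (log2 fold change -0.51 ± 0.11 (SE), adjusted p = 0.00771). Protein C (Proc) had a log2 fold change of -0.43 (adjusted p = 0.015). The exons of Serpinc1 overlap those of Zbtb37 on the other strand, and the libraries do not keep strand. Zbtb37 reached at most 23.4 CPM.

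Of the fibrinolysis members, plasminogen and its main plasma inhibitor were both lower. Plasminogen (Plg), the precursor of plasmin, fell by 0.65 on the log2 scale, from 2190.2 to 2650.4 CPM to 1389.9 to 1795 CPM (adjusted p = 0.00273). Its main plasma inhibitor, alpha-2-antiplasmin (Serpinf2), fell by 0.70, from 1637 to 1835 CPM to 969 to 1132 CPM (adjusted p = 0.0005). Cpb2, a carboxypeptidase that protects fibrin from lysis, had a log2 fold change of -0.16 and was not called (adjusted p = 0.36).

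In the classical and lectin pathways of complement, 1 of 9 members was higher and 3 were lower. Masp1, a protease of the lectin pathway, measured 81.4, 80.8, and 105 CPM with rAAV9-ST3GAL5.v1 and 151, 149.5, 166, and 139 CPM with AAV9.empty (log2 fold change -0.75 ± 0.11 (SE), adjusted p = 0.00133). Mbl1 had a log2 fold change of -0.67 and Masp2 of -0.34 (adjusted p = 0.00244 and 0.0279), the latter with 53.3% of its 31-base stretches shared with the opposite-strand gene Tardbp, itself not called, with a log2 fold change of -0.069. All 3 belong to the lectin pathway. C1 inhibitor (Serping1), which restrains C1, the Masp proteases, and kallikrein, was higher (352 to 539 CPM against 281 to 336 CPM, log2 fold change 0.55 ± 0.13 (SE), adjusted p = 0.015). C1ra, C1s1, C2, C4b, and Mbl2 were not called, with log2 fold changes from -0.24 to 0.18. Of the 31-base stretches, C1ra shares 56.9% with C1rb, C4b 48.3% with C4a, C2 40.2% with the predicted gene Gm20547, and C1s1 33.5% with C1s2, and the levels of these 4 members are uncertain for that reason.

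C3 and the alternative pathway gave no call in any of the 8 comparisons. C3 measured 6174, 11359.9, and 7460.5 CPM in rAAV9-ST3GAL5.v1 livers and 9853, 9946, 9735, and 7912 CPM with AAV9.empty, so that the second rAAV9-ST3GAL5.v1 liver exceeded every AAV9.empty liver and the other 2 lay below them. Its log2 fold change of -0.15 ± 0.19 (SE, adjusted p = 0.58) depended on single livers. It was -0.45 when rAAV9-ST3GAL5.v1 replicate 2 was left out, with an adjusted p of 0.013, 0.019 when replicate 1 was, and -0.076 when replicate 3 was. Factor B (Cfb) measured 1058, 1719, and 1214 CPM against 1219, 1297, 1267, and 1054 CPM (0.15 ± 0.16, adjusted p = 0.51), and its direction also turned without replicate 2 (-0.083). Gm20547 shares 75.5% of the stretches of Cfb and drew at most 0.485 CPM. Cfi, the protease that inactivates C3b, had a log2 fold change of -0.17 (adjusted p = 0.14). The liver that stood out in fibrinogen was thus the one that stood out in C3 and Cfb.

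In the terminal pathway, 3 of the 5 components were lower. C6 measured 4.41, 6.44, and 4.95 CPM with rAAV9-ST3GAL5.v1 and 13.7, 17.8, 14.9, and 8.79 CPM with AAV9.empty, again with replicate 4 lowest among the controls, and was 2.60-fold lower (log2 fold change -1.38 ± 0.24 (SE), adjusted p = 0.00316). Against AAV9.empty replicate 4 alone the log2 fold change was -0.72 (adjusted p = 0.33). Of the 3 chains of C8, 2 were lower. C8g, the gamma chain, measured 38.5, 45.2, and 45.98 CPM against 85.6, 85.5, 82.3, and 65.1 CPM and was 1.83-fold lower (log2 fold change -0.87 ± 0.12 (SE), adjusted p = 0.00091). C8b measured 47.5, 58.3, and 62.7 CPM against 115, 99.98, 92.3, and 78.2 CPM and was 1.70-fold lower (log2 fold change -0.77 ± 0.14 (SE), adjusted p = 0.00397). Against AAV9.empty replicate 4 alone the log2 fold changes were -0.58 for C8g and -0.46 for C8b (adjusted p = 0.23 and 0.33). C8a measured 148 to 205 CPM against 162 to 191 CPM (-0.036, adjusted p = 0.86). C9, a rare transcript here, had 40 to 59 counts per rAAV9-ST3GAL5.v1 library and was not called (-0.54, adjusted p = 0.12).

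The receptor for C5a gave the largest rise of all members. C5ar1 measured 19.5, 26.04, and 19.1 CPM in rAAV9-ST3GAL5.v1 livers and 5.94, 5.28, 3.67, and 4.51 CPM with AAV9.empty, 4.47-fold higher (log2 fold change 2.16 ± 0.18 (SE), adjusted p = 0.00014). In the other 19 livers it ranged from 2.87 to 7.71 CPM, so that every rAAV9-ST3GAL5.v1 liver stood above all of them. C5ar1 is expressed mainly by neutrophils, monocytes, and macrophages, and markers of the first 2 were also higher with rAAV9-ST3GAL5.v1. Of 12 neutrophil markers 11 were higher and 1, Ly6g, was not called (1.47 to 2.64 CPM against 2.29 to 2.86 CPM). Their summed level was 2651 to 2932 CPM with rAAV9-ST3GAL5.v1 and 1765 to 1919 CPM with AAV9.empty, a median log2 fold change of 0.57. Of 7 monocyte markers 5 were higher (summed 589 to 669 CPM against 352 to 388 CPM, median 0.75), Cd14 most of all (3.85). Of 8 Kupffer cell markers, which mark the resident macrophages of the liver, 5 were lower (summed 672 to 1025 CPM against 869.9 to 1257 CPM). None of these markers was at 0 in either group. In 2 livers of other groups the neutrophil sum lay within the rAAV9-ST3GAL5.v1 range while C5ar1 did not. The sum was 2677 CPM in AAV9.EGFP replicate 4, where C5ar1 measured 6.84 CPM, and 2651 CPM in E332K replicate 1, where C5ar1 measured 7.31 CPM. The monocyte sums of these 2 livers, 485 and 462 CPM, lay below the rAAV9-ST3GAL5.v1 range. The neutrophil sum weighs abundant genes such as S100a8 and S100a9 most. These were higher against AAV9.empty with rAAV9-ST3GAL5.v1 (0.80 and 0.80) and with the E332K vector (0.60 and 0.47). The scarcer Csf3r and Cxcr2 were higher with rAAV9-ST3GAL5.v1 (1.25 and 1.34) and not called with the E332K vector (0.36 and 0.0039). The part of leukocytes in the level of C5ar1 was not tested.

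**Figure D2:**
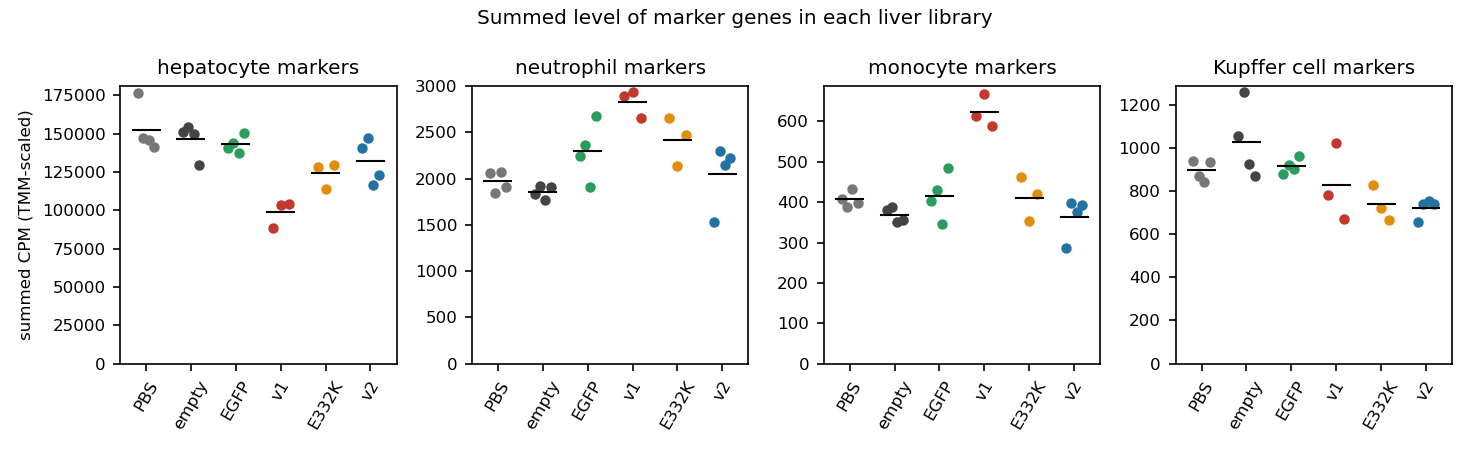
Summed CPM of hepatocyte (10 genes), neutrophil (12), monocyte (7), and Kupffer cell (8) markers in each of the 22 livers, 1 point per liver with the group mean as a line; every axis starts at 0. The 3 rAAV9-ST3GAL5.v1 livers are lowest in the hepatocyte panel (88533 to 103934 CPM) and highest in the monocyte panel (589 to 669 CPM).

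The pathway genes outside the list of 39 gave the surroundings of these changes. Of 29 other coagulation and fibrinolysis genes, 14 were higher and 8 lower with rAAV9-ST3GAL5.v1 against AAV9.empty (median 0.45). Over all genes tested, 13.8% were higher and 14.3% lower. This list was chosen with earlier results of these data known, so its counts do not test it against all genes. F2rl1, the receptor PAR2 that tissue factor complexes can activate, measured 10.5, 12.3, and 6.98 CPM against 1.68, 1.15, 1.94, and 1.21 CPM (log2 fold change 2.73 ± 0.26 (SE), adjusted p = 0.0002). Plaur, the urokinase receptor, measured 35.3, 54.7, and 21.6 CPM against 7.34, 5.91, 7.51, and 6.55 CPM (log2 fold change 2.46 ± 0.27 (SE), adjusted p = 0.00039). In both genes the groups did not overlap and the second rAAV9-ST3GAL5.v1 liver was the highest. Thrombomodulin (Thbd, 1.32), which turns thrombin toward protein C, thrombospondin 1 (Thbs1, 1.35), and the catalytic subunit of factor XIII (F13a1, 0.98) were also higher (adjusted p = 0.00101, 0.00235, and 0.00027). F13a1, found in monocytes and platelets, thus rose while F13b, its partner from the liver, fell.

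The other genes that fell included the enzymes of the vitamin K cycle. Vkorc1, which recycles vitamin K, measured 73.3, 73.2, and 65.6 CPM with rAAV9-ST3GAL5.v1 against 145, 147, 149.6, and 127 CPM with AAV9.empty (1.99-fold lower, log2 fold change -0.99 ± 0.089 (SE), adjusted p = 0.00017). Ggcx, the carboxylase that uses vitamin K on factors II, VII, IX, and X and proteins C, S, and Z, measured 28.7, 26.9, and 30.8 CPM against 48.6, 52.5, 46.9, and 44.8 CPM (log2 fold change -0.73 ± 0.083 (SE), adjusted p = 0.00045). Both were lower in every rAAV9-ST3GAL5.v1 liver than in any other liver of the series (123 to 177 CPM and 35.5 to 58.7 CPM). Lman1, a receptor that carries factors V and VIII out of the endoplasmic reticulum (-0.47), protein Z (Proz, -0.45), and histidine-rich glycoprotein (Hrg, -0.62) were lower too. Protein C inhibitor (Serpina5) was also lower, from 0.777 to 1.41 CPM to 0.0479 to 0.246 CPM, levels that rest on too few counts for a fold to be given. Of 26 other complement genes tested, 4 were higher and 12 lower (median -0.35), against 13.8% and 14.3% of all genes. The count of higher genes was thus near the share over all genes. C3ar1, the receptor for C3a, rose beside C5ar1 (11.6, 7.67, and 14.5 CPM against 4.44, 5.07, 3.62, and 3.64 CPM, log2 fold change 1.44 ± 0.22 (SE), adjusted p = 0.00177). Clusterin (Clu), an inhibitor of the terminal complex, was 2.36-fold higher (log2 fold change 1.24 ± 0.12 (SE), adjusted p = 0.00023), and Fcnb (0.55) and Cd55 (0.39) were higher too. Cpn2 and Cpn1, the subunits of the carboxypeptidase that inactivates C3a and C5a, fell (-1.24 and -0.61, adjusted p = 0.00065 and 0.00234). The gene of C5 itself, Hc (-0.68), the lectin Colec10 (-0.71), the complement receptor of Kupffer cells Vsig4 (-0.96), and Fcna (-0.67) were lower as well. Hc lost its call with limma on log2(TPM + 0.1) (-0.43, adjusted p = 0.052).

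**Figure D3:**
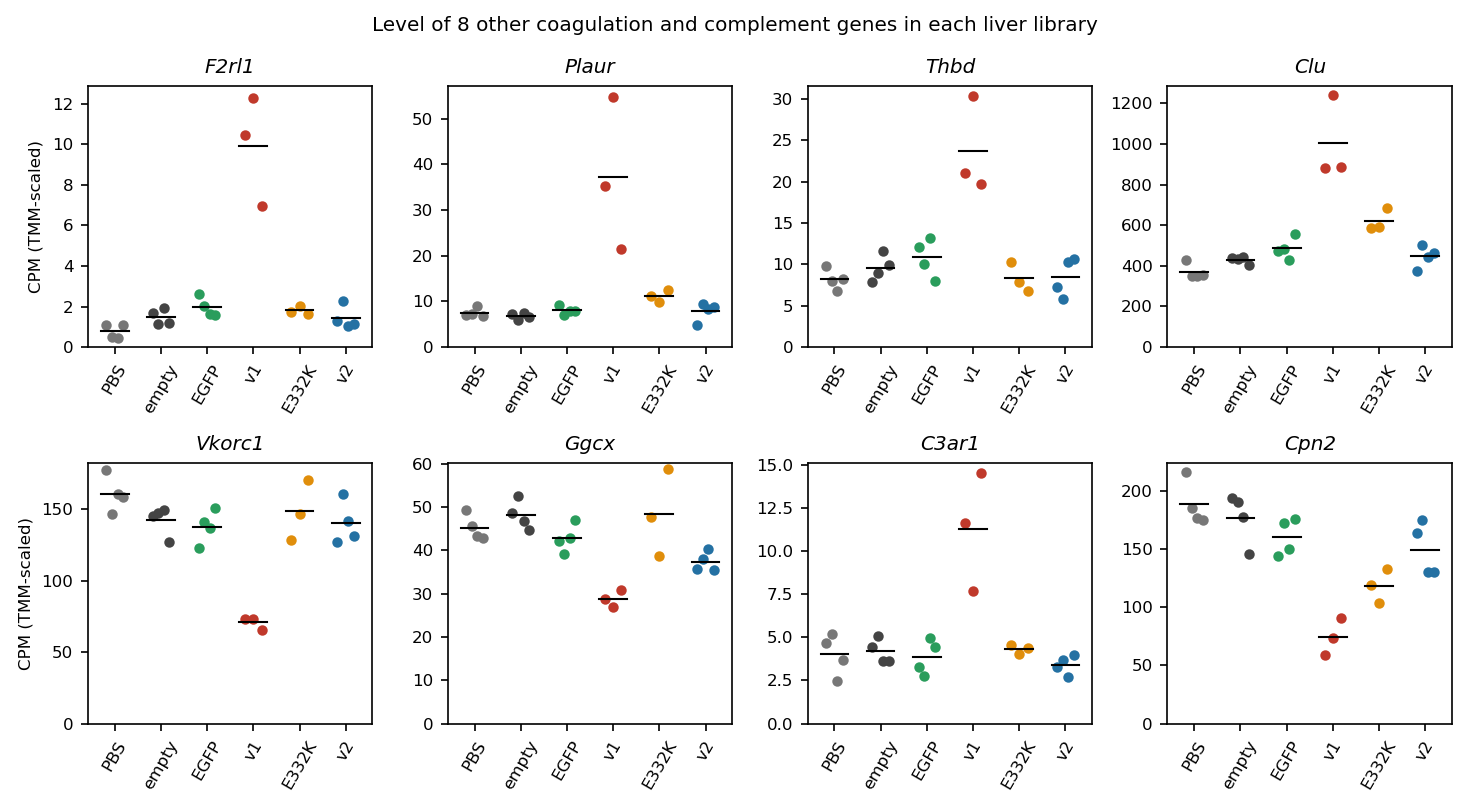
CPM of 8 coagulation and complement genes outside the list of 39 in each of the 22 livers, 1 point per liver with the group mean as a line; every axis starts at 0. In rAAV9-ST3GAL5.v1 livers F2rl1, Plaur, Thbd, Clu, and C3ar1 are above, and Vkorc1, Ggcx, and Cpn2 below, all other livers.

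The remaining comparisons asked what the capsid, another cargo, and the altered cassettes did to the same genes. The comparisons against AAV9.empty share those 4 livers, and those of rAAV9-ST3GAL5.v1 share its 3 livers. Against AAV9.EGFP, which carries the same promoter, rAAV9-ST3GAL5.v1 gave 7 members higher and 20 lower (12.7% and 15.1% of all genes). Both groups include 3 libraries without Gm47283, and among these 6 alone 6 members were higher and 19 lower. Here C5ar1 was 3.38-fold higher (log2 fold change 1.76 ± 0.14 (SE), adjusted p = 0.00029), F3 2.78-fold (log2 fold change 1.48 ± 0.20 (SE), adjusted p = 0.0011), and Fgb 1.82-fold (log2 fold change 0.86 ± 0.19 (SE), adjusted p = 0.00988). With any 1 library left out, the log2 fold change of Fgb was as low as 0.59. Fga had a log2 fold change of 0.78, or 0.51 without rAAV9-ST3GAL5.v1 replicate 2, and remained higher (adjusted p = 0.00719). C8g was 1.94-fold lower (log2 fold change -0.96 ± 0.11 (SE), adjusted p = 0.00067) and C6 2.22-fold (log2 fold change -1.15 ± 0.18 (SE), adjusted p = 0.0025). 

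Against rAAV9-ST3GAL5.v2, rAAV9-ST3GAL5.v1 gave 8 members higher and 15 lower (12.1% and 11.3% of all genes). With limma on log2(TPM + 0.1), a scale that shifted the median over all genes by 0.19, 9 were higher and 4 lower. Among libraries without Gm47283 (3 against 2) 3 were higher and 2 lower, and the count of lower members was 5 without rAAV9-ST3GAL5.v1 replicate 1 and that of higher members 5 without rAAV9-ST3GAL5.v2 replicate 1. C5ar1 (2.26), F3 (1.94), Fga (0.92), and Fgb (0.88) were higher and Klkb1 (-1.36) and C8g (-0.80) lower on the log2 scale, with adjusted p-values of 0.00076, 0.00269, 0.0122, 0.016, 0.00488, and 0.00168. With any 1 library left out, Fga was as low as 0.63 and Fgb as low as 0.59, and these 6 kept their call. Among the libraries without Gm47283, C5ar1, F3, and C8g kept it, whereas Fga (1.09, adjusted p = 0.0541), Fgb (1.05, adjusted p = 0.0596), and Klkb1 (-1.06, adjusted p = 0.0546) did not. Fgg (0.75, adjusted p = 0.0193) lost it without rAAV9-ST3GAL5.v2 replicate 1 (0.76) or 4 (0.67) and among the libraries without Gm47283 (0.86, adjusted p = 0.0757), and was 0.49 without rAAV9-ST3GAL5.v1 replicate 2. C1ra, which no other comparison called, was among the 8 higher members (0.42, adjusted p = 0.0267).

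The 2 ST3GAL5 cassettes behind the CB promoter differed in 20 members, 6 higher and 14 lower with rAAV9-ST3GAL5.v1 than with the E332K vector (9.55% and 10.03% of all genes). With limma on log2(TPM + 0.1), a scale that shifted the median over all genes by 0.21, the split was 7 higher and 3 lower. The lower count was also reduced without rAAV9-ST3GAL5.v1 replicate 1 (2), E332K replicate 1 (3), or E332K replicate 3 (2), and was 8 without rAAV9-ST3GAL5.v1 replicate 3. The higher count was 3 without rAAV9-ST3GAL5.v1 replicate 1 or E332K replicate 2 and 2 without E332K replicate 1 or 3. F3 showed the widest gap. It measured 6.81, 5.11, and 5.20 CPM with rAAV9-ST3GAL5.v1 and 0.751, 0.747, and 0.246 CPM with the E332K vector (9.74-fold, log2 fold change 3.28 ± 0.36 (SE), adjusted p = 0.00312), the latter from 4 to 15 counts per library. C5ar1 measured 7.31, 5.88, and 4.73 CPM with the E332K vector, 3.67-fold below rAAV9-ST3GAL5.v1 (log2 fold change 1.88 ± 0.20 (SE), adjusted p = 0.00288). C8g (91.99, 81.1, and 99.1 CPM with the E332K vector) was lower with rAAV9-ST3GAL5.v1 (log2 fold change -1.04 ± 0.12 (SE), adjusted p = 0.00379), as was Mbl2 (log2 fold change -1.18 ± 0.20 (SE), adjusted p = 0.00875). These 4 kept their call with any 1 library left out. Klkb1 (128, 117, and 121 CPM with the E332K vector) was lower with rAAV9-ST3GAL5.v1 as well (log2 fold change -1.10 ± 0.21 (SE), adjusted p = 0.0122), at an adjusted p of 0.0526 without rAAV9-ST3GAL5.v1 replicate 1 and 0.0506 without E332K replicate 3. The fibrinogen genes measured 3318 to 3601 CPM (Fga), 3127 to 3353 CPM (Fgb), and 2611 to 2819 CPM (Fgg) with the E332K vector and were higher with rAAV9-ST3GAL5.v1 by 0.87, 0.80, and 0.80 on the log2 scale (adjusted p = 0.0268, 0.0319, and 0.028). Each lost the call when any E332K library was left out (adjusted p up to 0.1), Fgb and Fgg also without rAAV9-ST3GAL5.v1 replicate 1, and Fgb was 0.53 without rAAV9-ST3GAL5.v1 replicate 2. With any 1 library left out, Fga was as low as 0.59 and Fgg as low as 0.55.

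Against AAV9.empty, the E332K vector gave 4 members higher and 7 lower (7.93% and 7.09% of all genes). With limma on log2(TPM + 0.1), a scale that shifted the median over all genes by -0.13, 1 was higher and 11 lower. With 1 library left out, 1 to 3 were higher and 3 to 6 lower, the lower count reaching 3 without AAV9.empty replicate 3 or E332K replicate 1 and 4 without AAV9.empty replicate 1, and the higher count 1 without AAV9.empty replicate 1 or 4 or E332K replicate 1 and 2 without AAV9.empty replicate 3 or E332K replicate 3. Of 10 hepatocyte markers, 3 were lower (summed 114123 to 129866 CPM). Of 12 neutrophil markers, 5 were higher and 1 lower (summed 2139.6 to 2651 CPM), and of 8 Kupffer cell markers 3 were lower (summed 664 to 827 CPM), as were 3 of 8 stellate cell markers (summed 493 to 681 CPM against 726 to 896 CPM with AAV9.empty). Their part in the members' values was not tested. Mbl2 was 2.37-fold higher (log2 fold change 1.24 ± 0.13 (SE), adjusted p = 8.73e-05). It kept that call in every alternative, with log2 fold changes from 1.04 to 1.36. C2 measured 119, 108, and 120.4 CPM against 93.4, 102, 85.6, and 68.3 CPM (log2 fold change 0.39 ± 0.12 (SE), adjusted p = 0.0474), and F12 measured 596, 577, and 652 CPM against 482, 517, 485, and 391 CPM (log2 fold change 0.37 ± 0.11 (SE), adjusted p = 0.0373). These 2 groups did not overlap in either gene. PBS replicate 1, however, held 109.9 CPM of C2 and 581 CPM of F12, above E332K replicate 2. C2 lost its call without any 1 library other than AAV9.empty replicate 2 and F12 without any other than AAV9.empty replicate 2 or E332K replicate 2, with log2 fold changes that stayed between 0.29 and 0.49 (C2) and 0.29 and 0.42 (F12). Neither was called with limma on log2(TPM + 0.1) (C2 0.32, adjusted p = 0.0672, and F12 0.24, adjusted p = 0.13). Serping1 completed the higher members (0.34, adjusted p = 0.0301) and was the only 1 of the 39 to be higher with both rAAV9-ST3GAL5.v1 and the E332K vector.

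On the lower side stood F3, which was higher with rAAV9-ST3GAL5.v1. It was 3.21-fold lower with the E332K vector than with AAV9.empty (log2 fold change -1.68 ± 0.45 (SE), adjusted p = 0.0257). The call was lost without AAV9.empty replicate 3 (-1.68) or 4 (-1.37) and without E332K replicate 1 (-1.89) or 3 (-1.34). The PBS livers held 1.12, 1.31, 1.18, and 1.02 CPM, above all 3 E332K livers. C6 measured 8.51, 8.27, and 8.48 CPM (log2 fold change -0.72 ± 0.20 (SE), adjusted p = 0.0291) and lost its call without any 1 library other than AAV9.empty replicate 4, with log2 fold changes from -0.89 to -0.57. C8b measured 63.9, 62.3, and 73.1 CPM (log2 fold change -0.55 ± 0.12 (SE), adjusted p = 0.012), with an adjusted p of 0.0517 without E332K replicate 1. Mbl1 (-0.52), C8a (-0.51), Klkb1 (-0.40), and Serpind1 (-0.31) were lower with adjusted p-values from 0.00297 to 0.0499. Of these 7 lower members, 5 were also lower with rAAV9-ST3GAL5.v1 (C6, C8b, Mbl1, Klkb1, and Serpind1), against the same AAV9.empty livers. The same overlap over all genes was not computed. C8a was called with the E332K vector and not with rAAV9-ST3GAL5.v1, but rAAV9-ST3GAL5.v1 and the E332K vector did not differ in it at the threshold (0.49, adjusted p = 0.0572).

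AAV9.EGFP changed 1 member against AAV9.empty, Mbl2 (0.387% of all genes were higher and 0.0553% lower). No member was lower with edgeR or with DESeq2, and 1 had an unadjusted p under 0.05. rAAV9-ST3GAL5.v2 changed 2, with Mbl2 higher and C6 lower (2.88% and 2.50% of all genes). With limma on log2(TPM + 0.1), a scale that shifted the median over all genes by -0.12, none was higher and 9 were lower, and DESeq2 gave 1 and 7. C6 measured 8.37, 7.998, 8.99, and 8.19 CPM with rAAV9-ST3GAL5.v2 (log2 fold change -0.71 ± 0.18 (SE), adjusted p = 0.0395). The call was lost without any 1 library other than AAV9.empty replicate 4 (adjusted p up to 0.13), and the lower count was 4 without rAAV9-ST3GAL5.v2 replicate 2 and 2 without AAV9.empty replicate 4. For AAV9.empty against PBS no member was called by edgeR or DESeq2 in either direction (0.104% and 0.207% of all genes), although 4 were higher and 1 lower at an unadjusted p under 0.05.

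Mbl2, a mannose-binding lectin that opens the lectin pathway, was the only member called with AAV9.EGFP. It measured 231, 197, 189, and 188 CPM with PBS and 197, 191, 204, and 177 CPM with AAV9.empty. It measured 279, 312, 290.3, and 352 CPM with AAV9.EGFP, 411, 377, and 585 CPM with the E332K vector, and 343, 589, 243, and 306 CPM with rAAV9-ST3GAL5.v2. All 11 of these livers were above the 8 PBS and AAV9.empty livers. With rAAV9-ST3GAL5.v1 it measured 165, 188, and 241 CPM, which overlapped the controls (0.055, adjusted p = 0.77). Against AAV9.empty the rise was 1.61-fold with AAV9.EGFP (log2 fold change 0.69 ± 0.076 (SE), adjusted p = 0.0003), 1.94-fold with rAAV9-ST3GAL5.v2 (log2 fold change 0.95 ± 0.21 (SE), adjusted p = 0.023), and 2.37-fold with the E332K vector. The call for rAAV9-ST3GAL5.v2 was lost when any 1 AAV9.empty library was left out, at log2 fold changes of 0.91 to 0.97, and with 1 AAV9.EGFP library against the 3 AAV9.empty libraries that express Gm47283 the log2 fold change was 0.57 (adjusted p = 0.0849). With all 6 groups in one fit, the AAV9.EGFP call was lost as well (adjusted p = 0.2), and limma on log2(TPM + 0.1) did not call rAAV9-ST3GAL5.v2 (adjusted p = 0.0528). rAAV9-ST3GAL5.v1 was lower than the E332K vector (-1.18, adjusted p = 0.00875), AAV9.EGFP (-0.64, adjusted p = 0.00747), and rAAV9-ST3GAL5.v2 (-0.88, adjusted p = 0.0461). The last call was lost without rAAV9-ST3GAL5.v1 replicate 1 (-0.77) or 2 (-0.85) and without rAAV9-ST3GAL5.v2 replicate 1 (-0.93), 2 (-0.56), or 4 (-0.97). It was also lost among the libraries without Gm47283 (-0.44, adjusted p = 0.15), with DESeq2 (adjusted p = 0.0728), and with limma on log2(TPM + 0.1) (adjusted p = 0.1). Mbl1, the companion lectin, measured 85.8 to 104 CPM with PBS, 83.8 to 91.2 CPM with AAV9.EGFP, 63.5 to 71.2 CPM with the E332K vector, and 51.2 to 67.9 CPM with rAAV9-ST3GAL5.v1. None of the motifs searched was found in the Mbl2 promoter window.

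**Figure D4:**
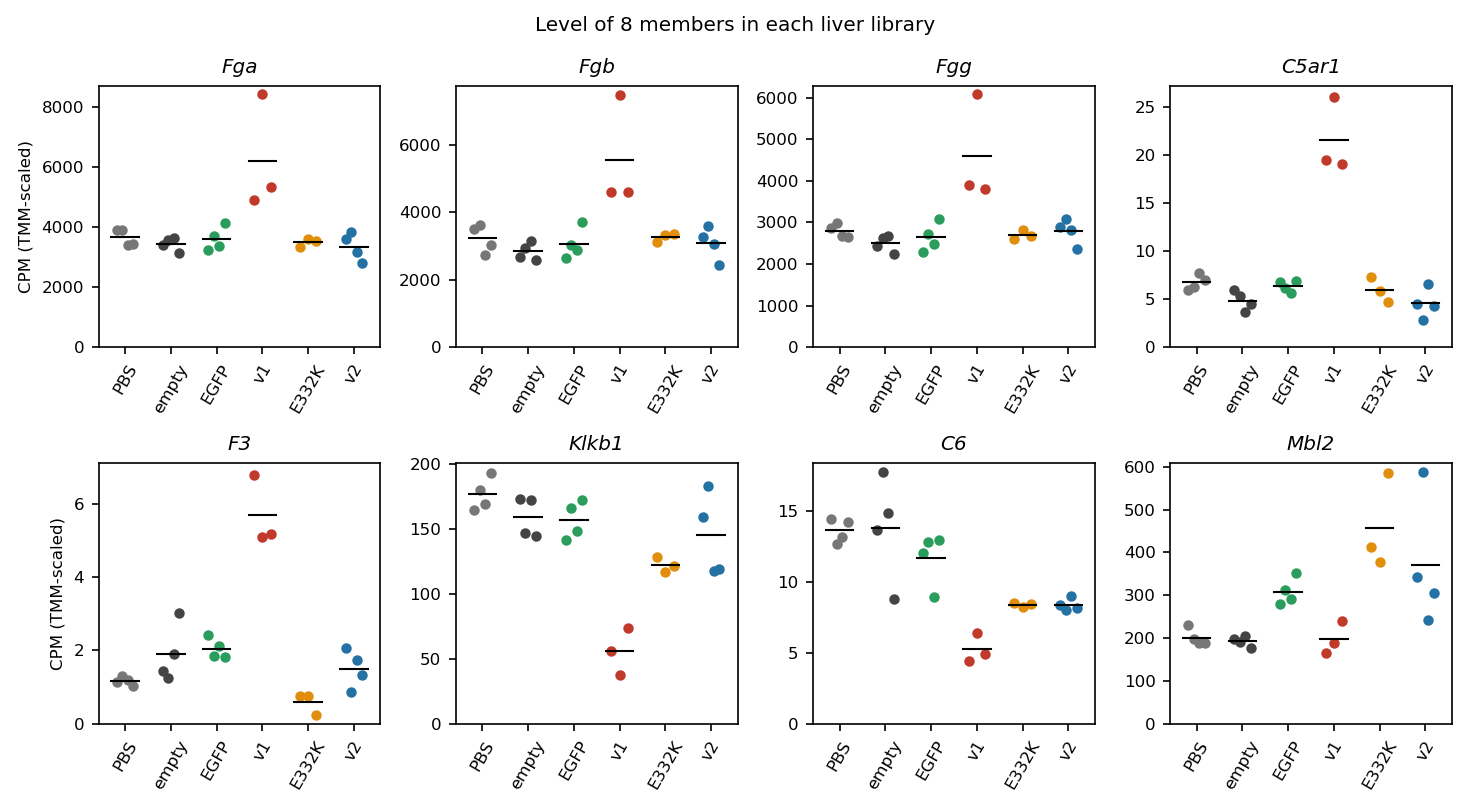
CPM of 8 members in each of the 22 livers, 1 point per liver with the group mean as a line; every axis starts at 0. The 3 rAAV9-ST3GAL5.v1 livers stand above all others in Fga, Fgb, Fgg, C5ar1, and F3 and below all others in Klkb1 and C6, while Mbl2 is raised in the AAV9.EGFP, E332K, and rAAV9-ST3GAL5.v2 livers (243 to 589 CPM).

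Across the 8 comparisons, 8 of the 39 members were never called (Kng1, C3, C4b, Cfb, Cfi, C9, Cpb2, and F10). The share of all genes that were never called was not computed. No member was higher, and none lower, with all of the 4 vectors that carry a genome against AAV9.empty. Because AAV9.EGFP called only Mbl2, that outcome was fixed in advance for every other member. Of the 17 members lower with rAAV9-ST3GAL5.v1 against AAV9.empty, 14 were also lower against both AAV9.EGFP and rAAV9-ST3GAL5.v2, and 12 were lower against the E332K vector, comparisons that reuse the rAAV9-ST3GAL5.v1 livers. The same overlap over all genes was not computed, so these counts are not a result about the members. All members lower against the E332K vector numbered 14, and 2 to 12 with 1 library left out. The map of fold changes by member and comparison shows these calls side by side.

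**Figure D5:**
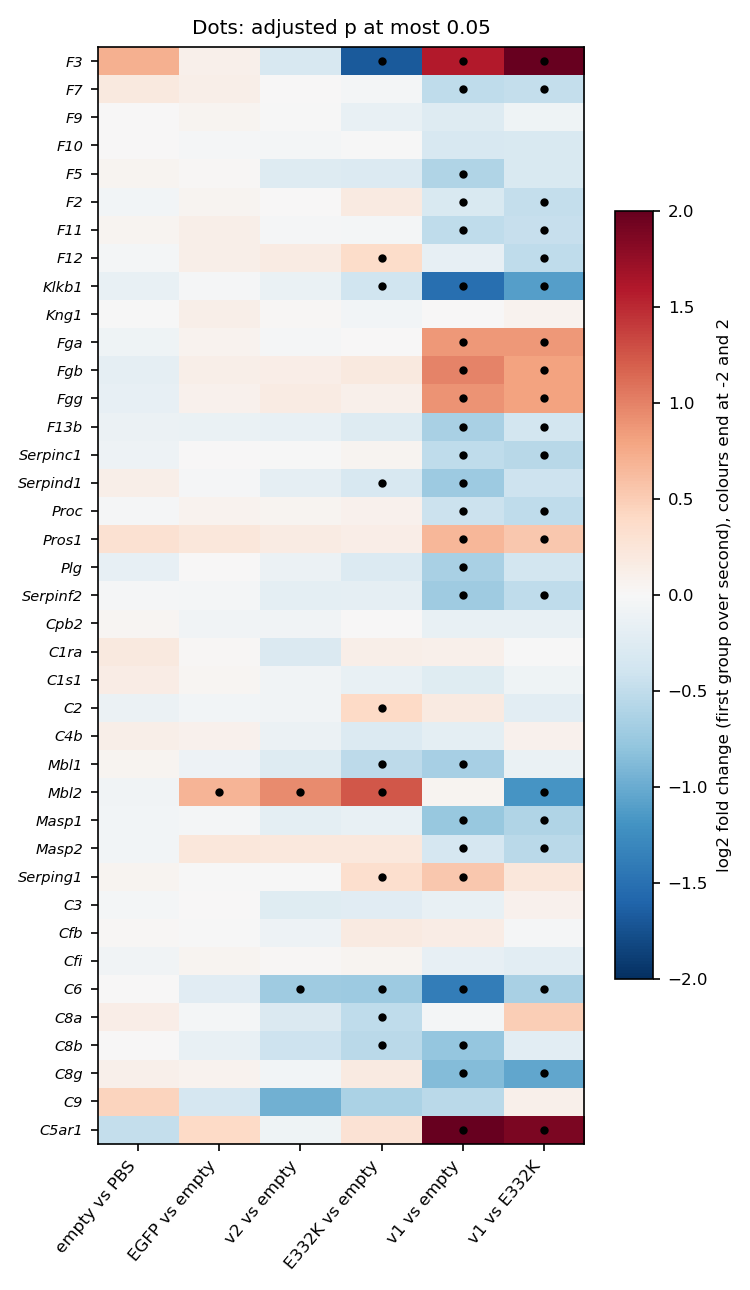
Log2 fold change of the 39 members (rows, ordered by role) in 6 comparisons (columns), red for higher and blue for lower in the first-named group, with a dot where the adjusted p was at most 0.05. The column for empty vs PBS holds no dot, and the F3 row changes from blue for the E332K vector (-1.68) to red for rAAV9-ST3GAL5.v1 (1.59), both against AAV9.empty.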

How the data were processed

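Liver mRNA of 22 pups was sequenced in pairs of reads from libraries that do not keep strand. The submitters' notes name Trimmomatic, STAR, RSEM, and mm10, and the authors ran RSEM with a GENCODE annotation whose release is not given in the sources used here. The expected counts, as deposited, are RSEM estimates per gene without scaling for depth, and 5.69% of them are not whole. The TPM values, deposited by the authors too, are corrected for transcript length. RSEM shares reads among similar genes, so genes with near copies are less certain.

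Expected counts were rounded. Each comparison of 2 groups was fitted with edgeR 4.0.16 (R 4.3.3; TMM, filterByExpr, quasi-likelihood F-test, Benjamini-Hochberg over all genes tested). The list of members and the other lists were chosen with earlier results of these data known. Values in every library are given for up to 6 members per direction with the largest change for rAAV9-ST3GAL5.v1 against AAV9.empty, up to 3 in other comparisons, and always for Fga, Fgb, Fgg, C3, Cfb, F3, and C5ar1. Of each list of other genes, up to 6 per direction with the smallest adjusted p were named. Alternatives were DESeq2 1.42.0 and its size factors, no filter, all 6 groups in one fit, a replicate block, limma 3.58.1 on log2(TPM + 1) or log2(TPM + 0.1) with a mean TPM of at least 1 and on log2(TPM + 1) without that filter, libraries alike in Gm47283, and each library left out. Scripts were tested on simulated data. Positions are from GENCODE vM21 (GRCm38) and promoters from RefSeq (GRCm38.p6, 30 of 39 members matched). Vector transcripts were not analysed here, and 1 gene of the other lists, although counted, is not reported here by name.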

Additional observations from a re-analysis of the deposited data

Results flagged for a closer look

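In groups of 4 livers, 1 liver stood far from the other 3 in 8 of 68 sets of member levels examined (17 members, 4 groups), where chance gives about 1 in 20. The members were measured in the same livers, so the sets are not independent and that share is only a rough guide. For C8g these were PBS replicate 1 (88.2 CPM against 68.3 to 71.4 CPM in the other 3), AAV9.empty replicate 4 (65.1 CPM against 82.3 to 85.6 CPM), AAV9.EGFP replicate 4 (98.3 CPM against 78.2 to 79.8 CPM), and rAAV9-ST3GAL5.v2 replicate 2 (87.5 CPM against 72.4 to 73.8 CPM). For Serpind1 they were PBS replicate 1 (631 CPM against 526 to 539 CPM) and AAV9.EGFP replicate 4 (637 CPM against 573 to 582 CPM). C3 was lowest in AAV9.empty replicate 4 (7912 CPM against 9735 to 9946 CPM), and Pros1 was lowest in AAV9.empty replicate 2 (29.7 CPM against 33.2 to 33.5 CPM). AAV9.empty replicate 4, named for C8g and C3, is the AAV9.empty library without Gm47283. Groups of 3 livers were not examined in this way.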

How the results depend on the processing

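With rAAV9-ST3GAL5.v1 over AAV9.empty, the counts of 7 members higher and 17 lower stayed within 1.5 times under every alternative except the libraries alike in Gm47283, where 1 AAV9.empty library was left and 0 and 0 were called. C3, not called, reversed there (0.091) and without rAAV9-ST3GAL5.v1 replicate 1. With 1 library left out, the range over the fits was -0.45 to 0.019 for C3 and -0.083 to 0.29 for Cfb. Leave-one-out ranges of members higher and lower were 7 to 7 and 14 to 19 for rAAV9-ST3GAL5.v1 against AAV9.empty, 1 to 3 and 3 to 6 for the E332K vector, 1 to 1 and 0 to 0 for AAV9.EGFP, 0 to 1 and 0 to 4 for rAAV9-ST3GAL5.v2, 2 to 7 and 2 to 12 for rAAV9-ST3GAL5.v1 over the E332K vector, 6 to 7 and 16 to 22 against AAV9.EGFP, and 5 to 8 and 5 to 14 against rAAV9-ST3GAL5.v2. The other counts that moved by over 1.5 times follow. For the E332K vector against AAV9.empty, 4 higher became 2 with all 6 groups in one fit and 1 with the replicate block, with each of the 3 limma fits, and with libraries alike in Gm47283, while 7 lower became 11 with DESeq2 and with limma on log2(TPM + 1) and log2(TPM + 0.1), and 4 with the block. For AAV9.EGFP, 1 higher became 0 with all 6 groups and with libraries alike in Gm47283. For rAAV9-ST3GAL5.v2, 1 higher became 0 in the 3 limma fits, and 1 lower became 7 with DESeq2, 2 with all 6 groups, 3 with the block, 9 with both filtered limma fits, and 2 without the filter. Between rAAV9-ST3GAL5.v1 and the E332K vector, 6 higher became 3 with limma without a filter, and 14 lower became 9 with the block, 3 with both filtered limma fits, and 1 without the filter. Against AAV9.EGFP, 20 lower became 13 with limma without a filter. Against rAAV9-ST3GAL5.v2, 8 higher became 4 with the block and 3 with libraries alike in Gm47283, and 15 lower became 3 with the block, 4 with both filtered limma fits, and 2 without the filter or with libraries alike in Gm47283. The cause of these changes was not tested, apart from the fewer libraries in the fits that leave libraries out. Same-numbered libraries did not deviate together (correlations of -0.17 to 0.28, over 0.1 for every number in none of the comparisons), so the block rests on numbers alone. Of the single genes named with a test, 422 of 478 leave-one-out fits and 532 of 609 other fits kept direction and call, 53 and 76 kept direction and lost the call, and 3 reversed, all in C3 or Cfb. Depth limits F3 and C9, with 4 to 15 counts of F3 per E332K library.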
